A study of Homo sapiens with 16 samples.

Results

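Histone acetylation along chromosome 13 was described from all peaks that the 8 deposited peak lists place on this chromosome, 3424 of 179689 peaks in all. The peaks were chosen by their chromosome alone, but chromosome 13 was itself selected on the peak numbers and covered lengths of these same lists, with earlier results known, so its difference between the cPt-sensitive and the cPt-resistant A2780 line is given as a description and without a test. H3K27ac marks active enhancers and promoters, and H3K9ac is found mainly at active promoters and at strong enhancers. Both marks are set by acetyltransferases and removed by histone deacetylases, among them those of the NuRD complex, of which MBD3 is a subunit. Chromosome 13 is an acrocentric human chromosome whose short arm is left out of most genome assemblies, and its long arm holds some of the longest gene-poor stretches of the genome beside gene-dense ends. RefSeq (GRCh38.p14) lists 338 protein-coding genes on it, among them the copper-exporting ATPase ATP7B and the transcription factors FOXO1 and KLF5, but the lists are on hg19 and no gene positions of that build were used here, so segments are named by position and no peak is assigned to a gene.

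The study profiled human epithelial ovarian cancer cell lines by ChIP-seq on MNase-digested mononucleosomes with a *D. melanogaster* spike-in. A2780 is an untreated endometrioid line, and A2780cis is its cPt-resistant derivative, kept in cPt. CAOV4 is an untreated high-grade serous line, and CAOV4cis was made from it by prolonged treatment with rising cPt. CAOV4cis was also kept in cPt, and the paper describes its treatment as shorter than that of A2780cis. H3K27ac was measured in all of these and in A2780 cells that expressed shMBD3.26 or shMBD3.232, shRNAs against *MBD3*, for 1 week, and H3K9ac was measured in A2780 and A2780cis only. The shRNA cells were Tet-on competent, transduced, selected with G418, given doxycycline to induce the shRNA and sorted for GFP. The A2780 cells they are set beside here were not, and the cells with a control shRNA were not analysed here. Each condition is 1 library, so no value has a replicate error and no p-value was computed between conditions. Wilson intervals (95%) cover counting error only.

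A peak in these lists is a start and an end, with a score of 0 throughout, so acetylation is given as the length covered by peaks, in kb. Reads per peak are not known, and a peak's height is not either. The lists held from 15365 to 28662 peaks each over all chromosomes, and their peaks covered from 54.5 to 98.9 Mb. Chromosome 13 was set beside the 19 other chromosomes, X included, that had peaks in every list. Chromosomes 20 to 22 were not among these and were not analysed here. Of the 28662 H3K27ac peaks of A2780, 657 lay on chromosome 13 and 27984 on the other 19, so the list held almost none elsewhere. Shares of bins and regions given over all chromosomes are over these 20 only. On some of them, peaks stopped well short of the chromosome end. The last bin with H3K27ac in both A2780 and A2780cis began at 197 Mb on chromosome 1, 180 Mb on chromosome 2 and 158 Mb on chromosome 3. The background thus lacks distal parts of these chromosomes, and the reason was not tested. On chromosome 13 the first peak began at 19174201 and the last ended at 115109800, so that 97 bins of 1 Mb, from 19 to 116 Mb, span all peaks. Starts and ends fall on multiples of 200 bp, and neighboring peaks are separated by 1000 bp or more.

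In A2780cis, chromosome 13 carried far less of both acetylation marks than in A2780. H3K27ac peaks covered 2295.6 kb in A2780 and 1231.8 kb in A2780cis, a ratio of 0.537, and H3K9ac peaks covered 1357 kb and 401.8 kb, a ratio of 0.296. The number of H3K27ac peaks went from 657 to 306 and that of H3K9ac peaks from 523 to 102. In both marks this was the lowest ratio of covered length among the 20 chromosomes. On the other 19, it ran from 0.813 on chromosome 4 to 1.11 on X for H3K27ac, with a median of 0.984, and from 0.792 on chromosome 4 to 1.43 on X for H3K9ac, with a median of 1.03. Input libraries were not analysed here, so the amount of chromosome 13 DNA in each line was not measured, and less DNA and less acetylation per copy cannot be told apart.

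The share of each list that lay on chromosome 13 shows the same difference without reference to the length of the lists. It was 2.29% (2.13% to 2.47%) of the H3K27ac peaks in A2780 and 1.46% (1.31% to 1.64%) in A2780cis. For H3K9ac, it was 2.30% (2.11% to 2.50%) in A2780 and 0.664% (0.547% to 0.805%) in A2780cis. The A2780 cells with an shRNA stayed near A2780, with 2.34% (2.15% to 2.54%) for shMBD3.26 and 2.09% (1.90% to 2.31%) for shMBD3.232. In CAOV4 and CAOV4cis, 1.85% (1.69% to 2.03%) and 1.73% (1.57% to 1.90%) of the peaks were on this chromosome.

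None of the reference comparisons gave chromosome 13 a comparable place. CAOV4 and CAOV4cis had nearly the same covered length there, 1068.6 kb and 1068.8 kb, with 435 and 433 peaks, and the chromosome with the lowest ratio in this pair was X at 0.503. With shMBD3.26, H3K27ac peaks covered 2039 kb of chromosome 13, or 0.888 of the length in A2780, where the other chromosomes had a median of 0.800. With shMBD3.232 they covered 1879.8 kb, or 0.819, against a median of 0.823. Both shRNA comparisons use the same A2780 library as the comparison of A2780cis with A2780.

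**Figure D1:**
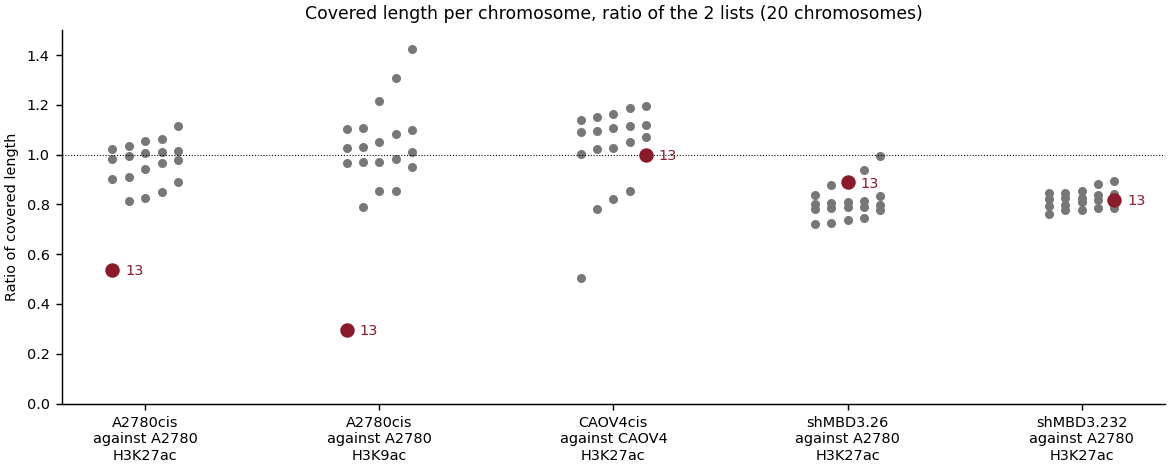
Each point is 1 of 20 chromosomes, and the vertical axis gives the covered length in the first-named list divided by that in the second, with chromosome 13 in red and the dotted line at no difference. Chromosome 13 lies below all other chromosomes in A2780cis against A2780, at 0.537 for H3K27ac and 0.296 for H3K9ac, and among them in the CAOV4 pair and with both shRNAs.

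Along the chromosome, the covered length changed in different ways in different segments. Of the 71 bins of 1 Mb with an H3K27ac peak in A2780 or A2780cis, 61 had less H3K27ac in A2780cis and 10 had more. H3K27ac was lost from 10 bins altogether, that is 14.1% of 71, and over all chromosomes 5.19% of such bins lost all peaks. The lost bins differed widely in A2780, from 0.6 kb in those that start at 75, 94 and 105 Mb to 116.6 kb in that from 35 to 36 Mb. Another 17 bins retained peaks but had at least 2-fold less coverage. Together, 27 bins or 38% had at least 2-fold less or none, where the share over all chromosomes was 13.5%. The remaining 34 lower bins, or 47.9%, had less by under 2-fold, against 33.2% over all chromosomes. Peaks were gained from none in 2 bins, or 2.82%, against 6.54% over all chromosomes, and 1 of the 2, from 112 to 113 Mb, had a single peak of 0.6 kb. With these 2 bins counted, 6 bins or 8.45% had at least 2-fold more coverage, against 15.3%. H3K9ac was lost from 23 of 64 bins, or 35.9%, against 7.40% over all chromosomes, and was gained from none in 3 or 4.69%, against 6.30%. At least 2-fold less H3K9ac or none was found in 53 bins or 82.8%, against 17.2%, and at least 2-fold more in 6 or 9.38%, against 18.4%.

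**Figure D2:**
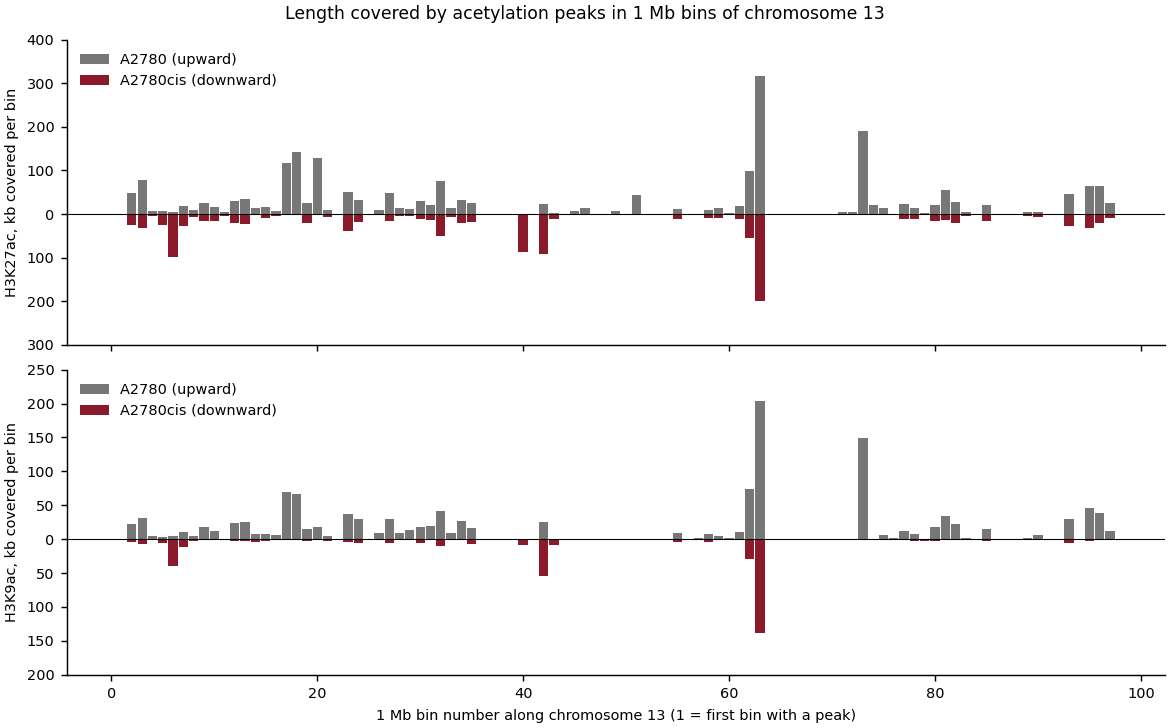
The length covered by peaks in each 1 Mb bin, in kb, is drawn upward for A2780 and downward for A2780cis, with H3K27ac above and H3K9ac below, and bin 1 begins at 19 Mb. The bars at bins 17, 18, 20 and 73 are present almost only in A2780, those at bins 6 and 40 almost only in A2780cis, and the tallest pair, at bin 63, is present in both lines.

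The difference in H3K27ac was partly concentrated in a few bins. The 61 lower bins had 1348.8 kb less in all, of which 5 bins made up 692 kb or 51.3%. The 10 higher bins had 285 kb more, of which 3 bins made up 248.6 kb or 87.2%. Without these 5 bins, which were left out after seeing the data, the H3K27ac ratio of the chromosome was 0.734, and without both sets of bins it was 0.548. The H3K9ac ratio was 0.311 without the 5 bins and 0.198 without both sets, so that the deficit of H3K9ac was found outside these bins as well.

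The most extended losses were found where A2780 had broad domains of acetylation that had no counterpart in A2780cis. In the bin from 91 to 92 Mb, H3K27ac covered 191.4 kb in A2780 and 0.4 kb in A2780cis, and H3K9ac covered 149.8 kb and 0 kb. The domain was made of 5 peaks between 91727801 and 91903200, which covered 168.2 kb. It included the widest H3K27ac peak of the chromosome in A2780, from 91727801 to 91823000 and 95.2 kb wide, and the widest H3K9ac peak, 33 kb from 91784401 to 91817400. With shMBD3.26 and shMBD3.232, the bin had 170.4 kb and 149.2 kb of H3K27ac, whereas CAOV4 and CAOV4cis had 1.0 kb and 0.8 kb. The domain was thus a feature of the lists of A2780 cells, with or without an shRNA, and was missing from A2780cis and, but for 0.4 kb in CAOV4, from both CAOV4 lines.

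The loss around this domain extended over neighboring bins. From 89 to 96 Mb, 7 bins in a row had at least 2-fold less H3K27ac or none, the longest such run on the chromosome, with 259.2 kb in A2780 and 15.2 kb in A2780cis. H3K9ac covered 171.4 kb and 0 kb there. The run included the bins from 93 to 95 Mb, which lost all H3K27ac peaks, with 15 kb in A2780. Toward the centromere it bordered a stretch without any H3K27ac peak in A2780, which had a gap of 8.08 Mb from 81729001 to 89812400. CAOV4 and CAOV4cis had 18.4 kb and 24.6 kb of H3K27ac from 89 to 96 Mb.

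More lost domains lay between 35 and 39 Mb. In the bins from 35 to 37 Mb, H3K27ac covered 258.8 kb in A2780, with 42 peaks, and 2.8 kb in A2780cis, as a single peak from 36918401 to 36921200. H3K9ac went from 135.8 kb with 27 peaks to no peak. The bin from 38 to 39 Mb had 128.2 kb of H3K27ac in A2780 and 2.0 kb in A2780cis, but H3K9ac covered only 18.6 kb of it in A2780, and none in A2780cis. The bin between them, from 37 to 38 Mb, retained most of its H3K27ac, with 25.8 kb in A2780 and 20.2 kb in A2780cis. Its H3K9ac was mostly lost, with 14.4 kb in A2780 and 3.2 kb in A2780cis. The A2780-only clusters ranked 2 to 5 on the chromosome all lay in these bins, the first of them from 36032601 to 36134800 with 80.6 kb covered.

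With an shRNA against *MBD3*, these domains were kept. From 35 to 37 Mb, H3K27ac covered 295.4 kb with shMBD3.26 and 303.6 kb with shMBD3.232, both above the 258.8 kb in A2780. The widest peaks here measured 79.2 kb and 80.8 kb, against 34.4 kb in A2780, and each spanned a stretch that A2780 had as separate peaks. From 38 to 39 Mb, the shRNA lists had less than A2780, at 76.8 kb and 97.4 kb. CAOV4 and CAOV4cis had 3.4 kb and 5.8 kb from 35 to 37 Mb, and 3.0 kb and 1.6 kb from 38 to 39 Mb.

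Another long stretch was lost without broad domains. From 62 to 73 Mb, no peak of either mark was listed in A2780cis in 11 bins in a row, and the gap between its H3K27ac peaks was 12.3 Mb, from 61048201 to 73299200, the longest of the chromosome in that list. A2780 had 29 H3K27ac peaks there which covered 71 kb, with a median width of 2200 bp and a widest peak of 6.0 kb. Its H3K9ac peaks numbered 3 and covered 1.0 kb, so that H3K9ac was nearly missing from this stretch in both lines. The H3K27ac peaks of A2780 lay in 4 of the bins, and those from 63 to 65 Mb were next to each other.

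The cells with an shRNA differed from each other in this stretch. Between 67 and 68 Mb, H3K27ac covered 6.2 kb in A2780, 45.2 kb with shMBD3.26 and 6.0 kb with shMBD3.232. Between 69 and 70 Mb, it covered 43.2 kb in A2780, in 13 peaks, but 1.2 kb with shMBD3.26 and 1.4 kb with shMBD3.232. The latter was the only bin, among the 10 in which A2780cis fell furthest below A2780, in which both shRNA lists also had less than 10 kb.

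**Figure D3:**
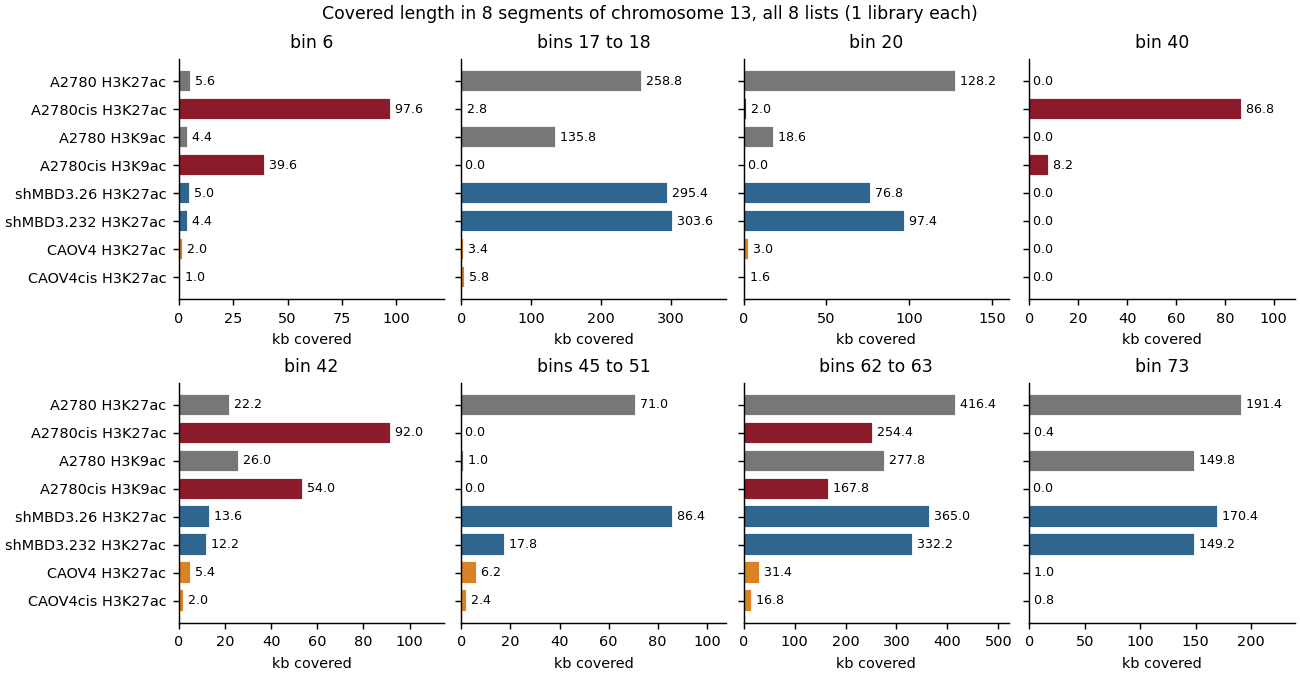
Bars give the length covered by peaks, in kb, in each of the 8 lists for 8 segments, which are bin 6 (24 to 25 Mb), bins 17 to 18 (35 to 37 Mb), bin 20 (38 to 39 Mb), bin 40 (58 to 59 Mb), bin 42 (60 to 61 Mb), bins 45 to 51 (63 to 70 Mb), bins 62 to 63 (80 to 82 Mb) and bin 73 (91 to 92 Mb). Gray is A2780, red A2780cis, blue the shRNA lists and orange the CAOV4 pair, each scale starts at 0 and differs between segments, and the bars of A2780cis are at or near 0 at bins 17 to 18, 20, 45 to 51 and 73.

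Higher coverage of H3K27ac was mainly found at 3 loci, and H3K9ac was higher at all of them. Between 24 and 25 Mb, H3K27ac covered 5.6 kb in A2780 and 97.6 kb in A2780cis, and H3K9ac covered 4.4 kb and 39.6 kb. The widest H3K27ac peak of the chromosome in A2780cis lay there, from 24039201 to 24086800 and 47.6 kb wide, over which A2780 peaks covered 1.2 kb. The next bin toward the centromere, from 23 to 24 Mb, went from 8.0 kb to 24.8 kb. Between 60 and 61 Mb, H3K27ac covered 22.2 kb in A2780 and 92 kb in A2780cis, and H3K9ac covered 26.0 kb and 54 kb. A2780 thus had peaks of both marks at this locus, and those of A2780cis were wider, with a widest H3K27ac peak of 34.8 kb against 7.4 kb.

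The locus at 58 Mb was gained from none. From 58201201 to 58369600, A2780cis had 8 H3K27ac peaks which covered 86.8 kb, and none of the other 5 H3K27ac lists had a peak anywhere in the bin from 58 to 59 Mb. H3K9ac covered 8.2 kb in A2780cis, as 2 peaks, and had no peak in A2780. This locus stood alone between gaps, since the distance to the nearest peak in any of the 8 lists was 2.43 Mb on one side and 1.93 Mb on the other. The first and second of the A2780cis-only clusters were located here, from 58201201 to 58252000 and from 58266401 to 58313600, with 45.8 kb and 38.2 kb covered. The next, from 24132001 to 24163600, had 30.6 kb covered. A cluster here holds regions of 1 class with none of the other classes close by, and the chromosome had 199 A2780-only and 32 A2780cis-only clusters. Clusters were not counted on the other chromosomes. A2780-only regions were the more frequent over all chromosomes too, with 38.1% of regions against 17.9% that were A2780cis-only, so the 2 cluster counts alone show nothing particular to chromosome 13. The A2780cis-only cluster ranked 4 had 3.6 kb covered. An A2780cis peak of 32.6 kb from 60899001 to 60931600, over which A2780 had no H3K27ac, lay near shared peaks and was therefore in no such cluster.

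At none of the 3 loci did the shRNA lists exceed A2780. From 24 to 25 Mb they had 5.0 kb with shMBD3.26 and 4.4 kb with shMBD3.232, and from 60 to 61 Mb they had 13.6 kb and 12.2 kb, below the 22.2 kb in A2780. The CAOV4 pair had little acetylation at these loci as well. CAOV4 and CAOV4cis had 2.0 kb and 1.0 kb from 24 to 25 Mb and 5.4 kb and 2.0 kb from 60 to 61 Mb.

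The largest acetylated domain of the chromosome was kept in A2780cis, but with less coverage. From 80 to 82 Mb, H3K27ac covered 416.4 kb in A2780 with 63 peaks and 254.4 kb in A2780cis with 25 peaks, a stretch which held 18.1% of the covered length of chromosome 13 in A2780 and 20.7% in A2780cis. H3K9ac covered 277.8 kb in 61 peaks and 167.8 kb in 17 peaks. Of the 8 A2780 peaks over 10 kb in this domain, 7 overlapped a peak in A2780cis. The exception measured 24.6 kb, from 81001401 to 81026000, where H3K9ac covered 19 kb in A2780 and A2780cis had neither mark. With shMBD3.26 and shMBD3.232, the domain had 365 kb and 332.2 kb of H3K27ac. In CAOV4 and CAOV4cis, 31.4 kb and 16.8 kb were covered.

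The peaks over 10 kb were also counted by place, in segments chosen after seeing where H3K27ac was lost or kept. The counts by segment restate that choice and do not test it. In A2780, 32 H3K27ac peaks on chromosome 13 exceeded this width, and 15 of them or 46.9% (30.9% to 63.6%) overlapped a peak in A2780cis, against 80.1% (78.1% to 82.1%) on the other chromosomes. From 35 to 39 Mb 0 of 12 had a partner, and from 91 to 92 Mb 0 of 3. From 80 to 82 Mb 7 of 8 had a partner, and elsewhere 8 of 9. With either shRNA, all 32 had a partner, against 99.7% with shMBD3.26 and 96.8% with shMBD3.232 on the other chromosomes. Peaks over 10 kb in A2780cis numbered 19, of which 6 lay from 80 to 82 Mb and 8 in the bins at 24, 58 and 60 Mb.

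Coverage was lower along most of the chromosome and not only in these domains. In the 59 bins with an H3K27ac peak in both lines, some bins of the domains included, the median ratio of A2780cis to A2780 was 0.649. Of these bins, 51 or 86.4% had less in A2780cis, against 45.6% on the other chromosomes. On the other chromosomes the median over 1762 such bins was 1.03, and the lowest median of a chromosome was 0.859, on chromosome 1. For H3K9ac the median was 0.212 over 38 bins, and it was 1.00 over 1606 bins elsewhere. From 19 to 35 Mb the sum of H3K27ac was nearly equal, with 323 kb and 312 kb, but without the bins from 23 to 25 Mb, in which it was higher, the ratio was 0.613. It was 0.565 from 39 to 54 Mb, 0.567 from 95 to 107 Mb and 0.465 from 107 to 116 Mb. The H3K9ac ratios of the last 3 segments were 0.173, 0.105 and 0.0681. Of these 3, the H3K9ac ratio was lowest in the last segment, in which H3K9ac covered 132.2 kb in A2780 and 9.0 kb in A2780cis.

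**Figure D4:**
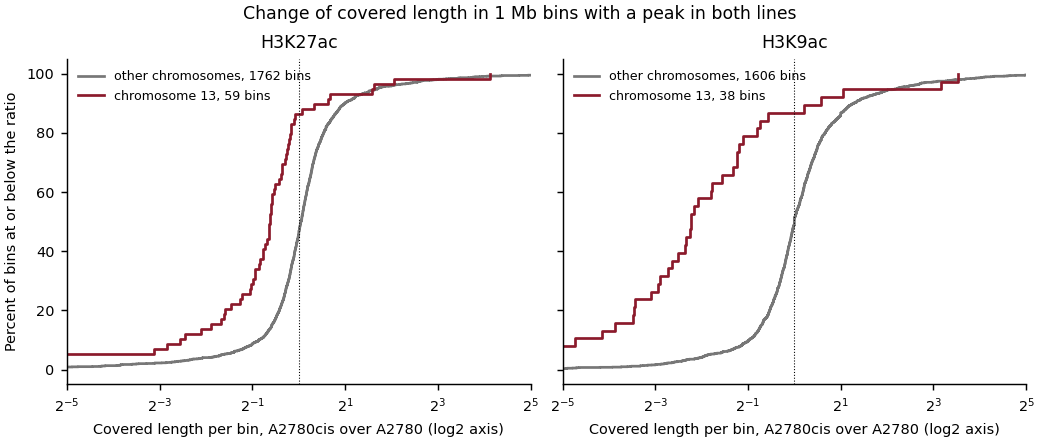
Each curve gives the percent of 1 Mb bins at or below a ratio of covered length in A2780cis to that in A2780, on a log2 axis cut at 32-fold, for bins with a peak in both lines, in red for chromosome 13 and in gray for the other chromosomes. The curve of chromosome 13 lies to the left of the other over most of its length, with medians of 0.649 and 1.03 for H3K27ac and of 0.212 and 1.00 for H3K9ac.

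Both marks were lower in most bins. Of the 71 bins with a peak of either mark, 53 had less H3K27ac and less H3K9ac in A2780cis and 6 had more of both. H3K27ac was lower in 61 of the bins and H3K9ac in 56, so a large overlap follows from these counts alone. A link between the marks was not tested, and bins were not counted in this way over all chromosomes. In 3 bins H3K27ac was higher and H3K9ac lower, and in 2 bins the reverse was found. In all 4 bins with at least 2-fold more H3K27ac, H3K9ac was higher too, from 34.8 kb to 108.2 kb in sum. In the 34 bins in which H3K27ac was lower by under 2-fold, with 1091.8 kb and 712.8 kb, H3K9ac covered 727.8 kb and 245.2 kb, so that H3K9ac was the more reduced of the marks there. In A2780cis, 65.1% of the H3K9ac length on the chromosome lay in only 4 bins, at 24, 60, 80 and 81 Mb, which held 22.7% in A2780.

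Single regions show the same as the bins. H3K27ac peaks of both lines were merged into 1 region where they shared at least 1 bp, which gave 703 regions on chromosome 13. Of these, 407 or 57.9% (54.2% to 61.5%) were found in A2780 only, 57 or 8.11% (6.31% to 10.4%) in A2780cis only and 239 or 34.0% (30.6% to 37.6%) in both. Over all chromosomes, 38.1% of the regions were A2780-only and 17.9% were A2780cis-only. On no other chromosome did the A2780-only share exceed 44.9%, the value of chromosome 18. When lists were cut to equal numbers of their widest peaks, the A2780-only share on chromosome 13 was 45.5%, against 23.9% over all chromosomes and at most 30.0% on another chromosome under the same choice. For H3K9ac, 444 of 540 regions or 82.2% (78.8% to 85.2%) were A2780-only, against 46.0% over all chromosomes. Another 26 or 4.81% (3.31% to 6.96%) were A2780cis-only, against 21.7%. In the CAOV4 pair, 222 of 642 regions were found in each line alone, 34.6% (31.0% to 38.3%), where 29.1% of all regions were CAOV4-only and 33.8% were CAOV4cis-only. With shMBD3.26, 171 of 794 regions or 21.5% (18.8% to 24.5%) were found in the shRNA list only, against 18.0% over all chromosomes, and 260 or 32.7% were A2780-only, against 34.1%. With shMBD3.232, 59 of 685 or 8.61% (6.74% to 11.0%) were found in the shRNA list only, against 10.9%, and 300 or 43.8% were A2780-only, against 40.1%.

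**Figure D5:**
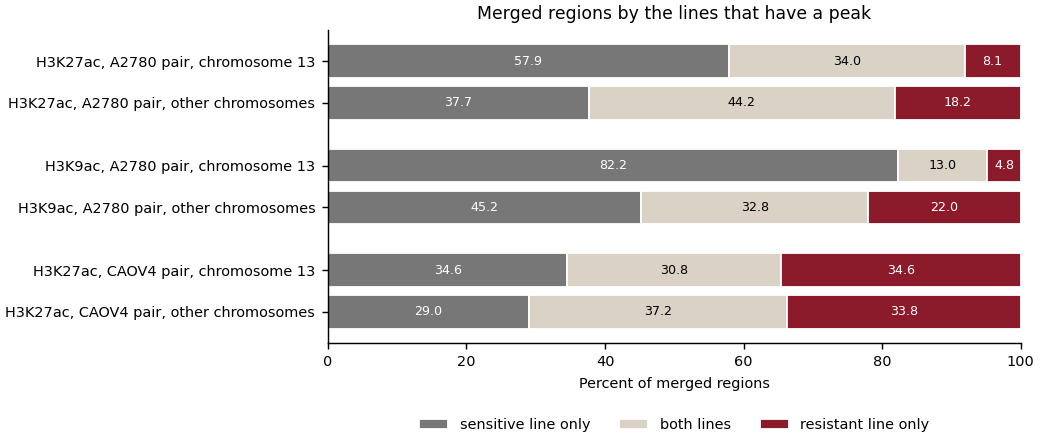
Bars give the percent of merged regions with a peak in the sensitive line only, in both lines or in the resistant line only, on chromosome 13 and on the other chromosomes. The sensitive-only share on chromosome 13 is 57.9% for H3K27ac and 82.2% for H3K9ac in the A2780 pair, above 37.7% and 45.2% elsewhere, and 34.6% in the CAOV4 pair, against 29.0%.

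Regions that were kept were also narrower. In the 239 common H3K27ac regions, the median ratio of covered length in A2780cis to that in A2780 was 0.813, and 156 of them or 65.3% had less in A2780cis. On the other chromosomes this median was 1.10 and 38.2% of the regions had less, and no other chromosome had a median under 1.00. The 70 common H3K9ac regions had a median ratio of 0.760, against 1.13 elsewhere. With shMBD3.26 and shMBD3.232, the median ratios to A2780 in common regions of chromosome 13 were 0.962 and 0.931, and in the CAOV4 pair the median was 1.06.

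In A2780cis, H3K9ac was missing from most of the H3K27ac regions that both lines shared. Of the 239 common H3K27ac regions, 178 or 74.5% (68.6% to 79.6%) had an H3K9ac peak in A2780, but only 73 or 30.5% (25.1% to 36.7%) had one in A2780cis. On the other chromosomes the 2 shares were alike, with 68.6% (67.9% to 69.4%) in A2780 and 69.3% (68.5% to 70.1%) in A2780cis. Chromosome 13 had the highest share of the 20 chromosomes in A2780, but barely, since chromosome 9 had 74.2%. In A2780cis it had the lowest, and the next was X at 43.0%. Among common regions over 2 kb, the shares on chromosome 13 were 83.0% (77.2% to 87.6%) in A2780 and 34.5% (28.3% to 41.3%) in A2780cis, against 75.8% and 76.1% on the other chromosomes. An H3K9ac peak of A2780 overlapped 63 of the 140 A2780-only regions over 2 kb, or 45% (37% to 53.3%), against 39.8% on the other chromosomes, and one of A2780cis overlapped 0, with a Wilson upper bound of 2.67%, against 5.56%.

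The CAOV4 lines had some of their H3K27ac in other parts of chromosome 13. Of 89 bins with a peak in any list, 15 or 16.9% had one only in the CAOV4 lists, against 7.58% over all chromosomes. In 8 bins or 8.99%, peaks were found only in the 6 lists of A2780 and A2780cis, those with an shRNA included, against 7.71%. All 8 lists had a peak in 35 bins or 39.3%, against 65.7%, and 8 bins had none in any list. In bins without an A2780 or A2780cis peak of either mark, CAOV4 had 107.6 kb of its 1068.6 kb, or 10.1%, and CAOV4cis had 55.6 kb, or 5.2%. The longest stretch without a peak in any list ran from 83240801 to 86570200 and measured 3.33 Mb. CAOV4 had more H3K27ac than A2780 toward the end of the chromosome, from 111 to 115 Mb, with 298 kb against 176 kb, and CAOV4cis had 345.2 kb there. From 33 to 35 Mb, 105.6 kb was covered in CAOV4 and 55.8 kb in CAOV4cis, and from 54 to 56 Mb, 53.6 kb and 7.4 kb, in a stretch where no list of A2780 or A2780cis had a peak.

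Bins of at least 2-fold change in the CAOV4 pair occurred in both directions. Of 81 bins with a peak, 2 or 2.47% lost all H3K27ac in CAOV4cis, against 5.43% over all chromosomes, and 9 or 11.1% gained it from none, against 6.51%. Together with these, 14 or 17.3% had at least 2-fold less H3K27ac in CAOV4cis or none, against 14.2% over all chromosomes. In 16 bins or 19.8% there was at least 2-fold more or a gain from none, against 16.0%. The shares with at least a 2-fold change were thus near those over all chromosomes in this pair. Bins that lost all peaks were fewer and gains from none more frequent, in counts of 2 and 9. These counts rest mostly on very short coverage. The 2 lost bins each had 0.4 kb in CAOV4. The gained bins had 0.2 to 0.8 kb in CAOV4cis, except for 2.0 kb from 40 to 41 Mb and 6.8 kb from 73 to 74 Mb. For shMBD3.26, 4 of 72 bins or 5.56% lost all H3K27ac relative to A2780, against 2.76% over all chromosomes, and 3 or 4.17% gained it from none, against 3.41%. At least 2-fold less or none was found in 8 bins or 11.1%, against 7.26%, and at least 2-fold more in 5 or 6.94%, against 6.11%. For shMBD3.232, 5 of 69 bins or 7.25% lost all H3K27ac, against 6.06%, and 0 gained it from none, against 1.03%. At least 2-fold less or none was found in 11 bins or 15.9%, against 13.4%, and at least 2-fold more in 0, against 2.36%.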

How the data were processed

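ChIP-seq for H3K27ac and H3K9ac was analyzed from 8 peak lists, 1 per sample and not pooled. Per their methods and processing notes, the authors aligned reads to GRCh37/hg19 with Bowtie2, applied quantile normalization in R, and used MACS2 for peak calling. Versions, the peak threshold and the step that put boundaries on a grid of 200 bp are not given in the sources used here. The deposited score, 0 for all peaks, was left aside. The last peaks lie beyond the end of the last chromosome 13 gene of GRCh38.p14, so RefSeq served for gene names only.

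Covered length was summed in bins of 1 Mb with Python 3.11.15 and numpy 2.4.6, and figures used matplotlib 3.10.9. A bin was called lost or gained where a list had no peak, and otherwise changed at 2-fold. Peaks sharing at least 1 bp were merged, and regions no more than the default distance of ROSE apart were stitched. The bins with the largest change, clusters, widest peaks and gaps were named by their rank. The binning and merging were tested on simulated data. The bounds of all segments, the 10 kb limit and the bins left out were chosen after seeing the data. The members and lists were chosen with earlier results of these data known. Input libraries were not analysed here. Alternatives were peaks over 2 kb, equal numbers of widest peaks, other bins, scaling, overlaps and stitching distances.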

Additional observations from a re-analysis of the deposited data

Results flagged for a closer look

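In 2 bins of chromosome 13 the cell line pairs changed in opposite directions by at least 2-fold, among bins in which each pair had at least 5 kb covered in 1 of its lists. In the bin from 60 to 61 Mb, H3K27ac covered 69.8 kb more in A2780cis than in A2780, and the difference of CAOV4cis to CAOV4 was -3.4 kb, with 2.0 kb against 5.4 kb. In the bin from 93 to 94 Mb, the difference of A2780cis to A2780 was -14.4 kb, with 0 kb against 14.4 kb, and coverage was 7.2 kb higher in CAOV4cis than in CAOV4, with 9.4 kb against 2.2 kb. Each direction rests on 1 library per line, and the difference between the pairs was not tested.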

How the results depend on the processing

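Of 46 values under other settings, 38 stayed within 1.5 times the reported count or ratio, or within the interval of the reported share, and 8 did not. With bins of 500 kb, 20 bins lost all H3K27ac, 5 gained it from none and 46 had at least 2-fold less or none, since there are more bins. Gains from none numbered 1 with bins of 2 Mb and 4 with the same number of widest peaks. With that choice, the A2780-only share of regions was 45.5%, against 23.9% over all chromosomes, and the A2780cis-only share was 11.7%, against 26.4%. With peaks over 2 kb the A2780-only share was 50.1%, against 26.4% over all chromosomes. The ratio of covered length on chromosome 13 ranged between 0.421 and 0.734 for H3K27ac, and between 0.198 and 0.322 for H3K9ac, under all settings tried, including those that leave out bins, which were added after seeing the data. It was the lowest of the 20 chromosomes with peaks over 2 kb and with equal numbers of widest peaks in both marks. No paired analysis was possible because each group has 1 library. Since reads, signal and replicates were not used here, a region without a listed peak may carry signal under the authors' threshold, and the precision of a single bin is unknown.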
